A study of Homo sapiens with 6 samples.

Results

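The accessible chromatin of 10 genes of the mitogen-activated protein kinase (MAPK) pathway was examined in RKO cells under replication stress. The genes were the receptor genes EGFR and EPHA2, the kinase gene BRAF, the phosphatase genes DUSP4 and DUSP6, the Sprouty genes SPRY2 and SPRY4, the ETS factor genes ETV4 and ETV5, and PHLDA1. They were 10 of the 59665 RefSeq genes of GRCh38.p14, and an ATAC-seq peak was assigned to a gene when its midpoint lay in the gene body or within 10 kb of it. Peaks of all samples that overlapped were merged into 102783 regions, of which 63 belonged to the 10 genes. Of these 63 regions, 15 lay within 1 kb of a gene start, 28 lay elsewhere in a gene body and 20 lay in the 10 kb flanks.

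ATAC-seq measures chromatin accessibility with the transposase Tn5, which inserts sequencing adapters where DNA is accessible. RKO is a human colon cancer cell line with an activating BRAF mutation, and aphidicolin (APH) slows replication by inhibiting the DNA polymerases of the fork. All samples were RKO cells grown under the same low oxygen conditions, 3 treated with DMSO and 3 with 0.2 µM APH for 16 h, and all were treated with DNase and frozen before the assay. Each peak carried a value, its mean read coverage. The values read as whole counts per bin, so no scaling factor appears to have been applied, but it is not known whether reads had been subsampled to a common depth beforehand.

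The pathway carries growth signals from receptor tyrosine kinases through RAS, RAF and MEK to the kinase ERK. Activated ERK turns on genes whose products feed back on it, among them the dual-specificity phosphatases of the DUSP family and the Sprouty proteins, as well as the ETS transcription factors of the PEA3 group. In cells with mutant BRAF these genes are commonly read as the output of the pathway.

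The peak lists held 65865, 77194 and 64511 peaks in DMSO and 79807, 84510 and 70121 in APH, and the mean value over all peaks was 78.3, 85.2 and 83.1 in DMSO and 69.4, 73.0 and 71.0 in APH. The APH lists were thus longer and lower in value, except that APH 3 held fewer peaks than DMSO 2. The depth of the libraries is unknown, and a difference in depth would pass into the values. As a check of the cell label, a start peak was present in all 6 samples at 2 of 10 epithelial and colonic marker genes, EPCAM and CDX2, and in no sample at 7, CDH1 and KRT8 among them. Of 10 marker genes of other cell types, COL1A1 and ACTA2 had a start peak in all 6 samples, 7 had none, PTPRC among them, and PECAM1 could not be assessed because no start was assigned to it. Most epithelial markers were therefore without a peak at their start in these cells.

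The promoter sequences of 7 of the 10 genes were matched in RefSeq (GRCh38.p14), with 10 listed starts. The 250 bases upstream of the start are shown for 5 of the 6 genes whose window was overlapped by a peak in all 6 samples, to span the range of start values, from DUSP6, with the highest value among the 10 genes, to EGFR, with the lowest. Capitals mark matches to an ETS motif (CCGGAA) in SPRY2 and PHLDA1, and to a cyclic AMP response element (CRE, TGACGTCA) and a CIC motif (TGAATGAA or TGAATGGA) in EPHA2, and each sequence is written 5′ to 3′ on the strand of the gene.
DUSP6, chr12:89352502-89352751, minus strand: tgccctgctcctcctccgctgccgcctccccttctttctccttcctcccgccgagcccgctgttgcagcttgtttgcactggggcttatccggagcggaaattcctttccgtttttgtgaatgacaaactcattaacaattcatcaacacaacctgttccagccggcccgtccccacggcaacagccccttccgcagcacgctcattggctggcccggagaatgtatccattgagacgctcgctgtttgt
SPRY2, chr13:80341127-80341376, minus strand: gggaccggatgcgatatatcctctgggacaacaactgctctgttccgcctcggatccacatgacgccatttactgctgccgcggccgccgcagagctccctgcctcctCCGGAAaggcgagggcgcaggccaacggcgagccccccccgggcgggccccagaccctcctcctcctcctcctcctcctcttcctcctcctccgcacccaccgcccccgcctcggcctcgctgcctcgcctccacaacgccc
PHLDA1, chr12:76031777-76032026, minus strand: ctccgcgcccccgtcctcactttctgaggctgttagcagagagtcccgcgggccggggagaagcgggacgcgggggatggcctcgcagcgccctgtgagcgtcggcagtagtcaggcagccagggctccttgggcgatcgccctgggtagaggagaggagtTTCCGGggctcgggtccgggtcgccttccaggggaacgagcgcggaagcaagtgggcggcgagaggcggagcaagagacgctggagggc
EPHA2, chr1:16156070-16156319, minus strand: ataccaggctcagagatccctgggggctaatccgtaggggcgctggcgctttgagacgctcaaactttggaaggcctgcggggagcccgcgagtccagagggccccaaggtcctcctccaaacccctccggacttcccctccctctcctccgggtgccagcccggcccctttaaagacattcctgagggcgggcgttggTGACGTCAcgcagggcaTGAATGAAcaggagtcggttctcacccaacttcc
EGFR, chr7:55018767-55019016, plus strand: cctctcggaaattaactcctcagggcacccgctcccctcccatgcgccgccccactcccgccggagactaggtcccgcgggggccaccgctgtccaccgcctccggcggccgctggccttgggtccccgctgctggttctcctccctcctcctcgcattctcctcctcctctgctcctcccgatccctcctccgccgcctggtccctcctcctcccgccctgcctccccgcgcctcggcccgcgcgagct

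Both strands were searched. The ETS motif, which ETV4 and ETV5 among others bind, stood in 2 of the 10 member windows, 142 bases upstream of the SPRY2 start and, on the reverse strand, 89 bases upstream of the PHLDA1 start, and in 14.5% of 35116 promoter windows of the same length. The EPHA2 window held the CRE, which reads the same on both strands, 51 bases upstream and a motif of CIC, a repressor relieved by ERK signaling, 34 bases upstream. These were found in 1.65% and 2.19% of all windows. The AP-1 motif (TGANTCA, 6.57% of all windows) was found upstream of the second listed start of EGFR, where no sample had a peak, and the serum response element (1.16%) was found in none of the 10. No match to the 5 motifs was found in the windows shown for DUSP6 and EGFR. The window of SPRY4 was overlapped by no peak, since its listed start lies inside the gene and its start peak lay at the 5′ end. The GC content of the windows shown ranged from 57.2% in DUSP6 to 73.6% in EGFR, against a median of 58% over all windows.

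All 10 genes had a peak within 1 kb of a start in all 6 samples. The highest start peak was lower in mean value in APH than in DMSO at each of the 10 genes, although BRAF, EGFR and DUSP4 turned higher with samples centred on their median, and BRAF, DUSP4 and SPRY2 under quantile normalization. None of the 10 passed the test. The same was found over all genes, since 88.4% of the 15281 genes with a start peak in every sample were lower in mean in APH. Beside the values as measured, each start value was therefore also divided by the median start value of its sample, which was 147, 158 and 161 in DMSO and 124, 131 and 134 in APH. On that scale SPRY4 was lower in all APH samples than in any DMSO sample, DUSP4 was higher in all APH samples, and the groups overlapped at the other 8 genes.

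**Figure D1:**
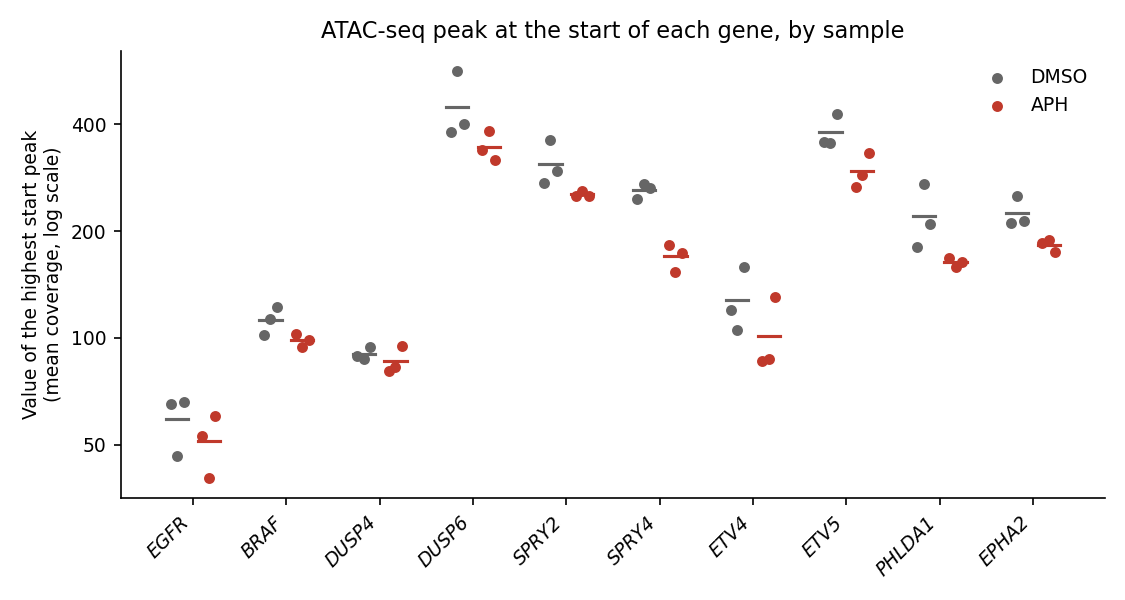
Value of the highest peak within 1 kb of the start (mean coverage, log axis) for the 10 genes, with 1 point per sample, DMSO in gray and APH in red, and a line at the mean of each group. The 3 APH samples lie below all DMSO samples at SPRY2, SPRY4, ETV5, PHLDA1 and EPHA2, and at SPRY4 they lie between 153 and 183 against 246 to 271 in DMSO.

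Among the receptors, EGFR, the receptor of epidermal growth factor, had the lowest start value of the 10 genes, with 65.2, 46.6 and 65.9 in DMSO and 52.8, 40.3 and 60.3 in APH. The peak lay at chr7:55018699-55019757 and ranked at percentile 8.25 of all genes with a start peak, and the start of LOC105375284 lies under the same region. The groups overlapped, and the log2 change was −0.21 ± 0.20 (SE, limma adjusted p = 0.445). Leaving out any 1 sample except APH 1 moved this change by over 1.5 times, from −0.37 without DMSO 2 to −0.05 without APH 2. EPHA2, a receptor of ephrins, had start values of 210, 251 and 214 in DMSO and 186, 189 and 174 in APH. The groups of EPHA2 did not overlap, and the log2 change was −0.29 ± 0.12 (limma adjusted p = 0.111). The gene EPHA2-AS1 overlaps the same region, chr1:16155880-16156484, so the peak cannot be assigned to one of them, and the value of 251 in DMSO 2 came from a second region near the start.

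BRAF encodes the RAF kinase that is mutated in these cells. Its start values were 102, 113 and 122 in DMSO and 102, 94.2 and 98.8 in APH, at percentile 31.3 of all genes. The lowest DMSO sample and the highest APH sample lay together, and the log2 change was −0.19 ± 0.13 (limma adjusted p = 0.313). The start of LOC105375536 lies under the same region, chr7:140923492-140925287. Averaged over that region with weight by length, the log2 change was −0.10 ± 0.15 (limma adjusted p = 0.836).

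The phosphatase genes stood far apart in level. DUSP6, which encodes a cytoplasmic phosphatase of ERK, had start values of 381, 564 and 399 in DMSO and 337, 382 and 316 in APH, which placed it at percentile 97.7 of all genes. DMSO 2 was the highest of its samples, APH 2 lay slightly above DMSO 1, and the log2 change was −0.36 ± 0.16 (limma adjusted p = 0.143), or −0.18 without DMSO 2. DUSP4, which encodes a nuclear phosphatase, had values of 88.7, 87.2 and 94.5 in DMSO and 80.9, 82.7 and 95.1 in APH, at percentile 22.3. The groups overlapped, and DUSP4 had the smallest difference of the 10 genes, with a log2 change of −0.07 ± 0.14 (limma adjusted p = 0.737) that ranged from −0.14 without APH 3 to −0.02 without APH 1.

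The Sprouty proteins inhibit signaling between the receptors and ERK. SPRY4 had start values of 246, 271 and 264 in DMSO (mean 261 ± 13.0, SD, n = 3) and 183, 153 and 173 in APH (170 ± 15.4, n = 3). All APH samples lay far below all DMSO samples. The log2 change of −0.62 ± 0.12 was the largest of the 10 genes, but it missed the threshold of 0.05 after adjustment over all genes (limma adjusted p = 0.0692). SPRY2 had values of 272, 360 and 296 in DMSO and 252, 259 and 251 in APH, so that the groups did not overlap and the APH samples lay close together (log2 change −0.27 ± 0.13, limma adjusted p = 0.146). Without DMSO 2 the change of SPRY2 was −0.16.

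ETV4 and ETV5 encode related ETS transcription factors. ETV5 had start values of 356, 354 and 428 in DMSO and 265, 287 and 333 in APH, at percentile 94.8 of all genes and without overlap of the groups. Its log2 change was −0.36 ± 0.13 (limma adjusted p = 0.0967). ETV4 had values of 120, 105 and 158 in DMSO and 86.0, 87.4 and 130 in APH, where sample 3 was the highest of each group and the groups overlapped (log2 change −0.34 ± 0.19, limma adjusted p = 0.221). The change was −0.17 without DMSO 3 and −0.53 without APH 3. PHLDA1, which encodes a pleckstrin homology-like domain protein, had values of 181, 271 and 209 in DMSO and 168, 159 and 163 in APH. The groups of PHLDA1 did not overlap, and DMSO 2 stood above the other samples (log2 change −0.41 ± 0.15, limma adjusted p = 0.0891). Without DMSO 2 the change of PHLDA1 was −0.25.

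In 5 of the 10 genes (SPRY2, SPRY4, ETV5, PHLDA1 and EPHA2) all APH start values lay below all DMSO values, against 37.2% of all genes tested. In none did all APH values lie above, against 1.06%. With limma, 0 of the 10 genes and 0 of the 15281 genes passed an adjusted p of 0.05 in either direction (percent called 0), while an unadjusted p under 0.05 was given by 5 of the 10 genes, all lower in APH, against 34.2% of all genes in that direction and 0.654% in the other. The median log2 change was −0.32 for the 10 genes and −0.25 for all. The exact permutation test of 3 against 3 samples cannot give a p below 0.1.

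After division by the median start value of the sample, SPRY4 stood at 1.68, 1.72 and 1.65 in DMSO and at 1.48, 1.17 and 1.29 in APH (exact permutation p = 0.1, two-sided, the smallest possible). DUSP4 stood at 0.605, 0.552 and 0.588 in DMSO and at 0.655, 0.632 and 0.708 in APH (exact permutation p = 0.1). These were the 2 genes without overlap on this scale, 1 in each direction, where 6.54% of all genes were lower without overlap and 8.56% higher. SPRY2 is an example of the other 8, at 1.99 ± 0.248 in DMSO and 1.96 ± 0.0867 in APH (SD, n = 3 each). In limma with each sample centred on its median, the log2 change of SPRY4 was −0.36 (unadjusted p = 0.00758, adjusted p = 0.444), and the changes of BRAF (0.07), EGFR (0.05) and DUSP4 (0.19) had the opposite sign to those of the values as measured. Centring shifted all start changes by 0.26, and 7 of the 10 genes were still lower in mean ratio in APH.

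**Figure D2:**
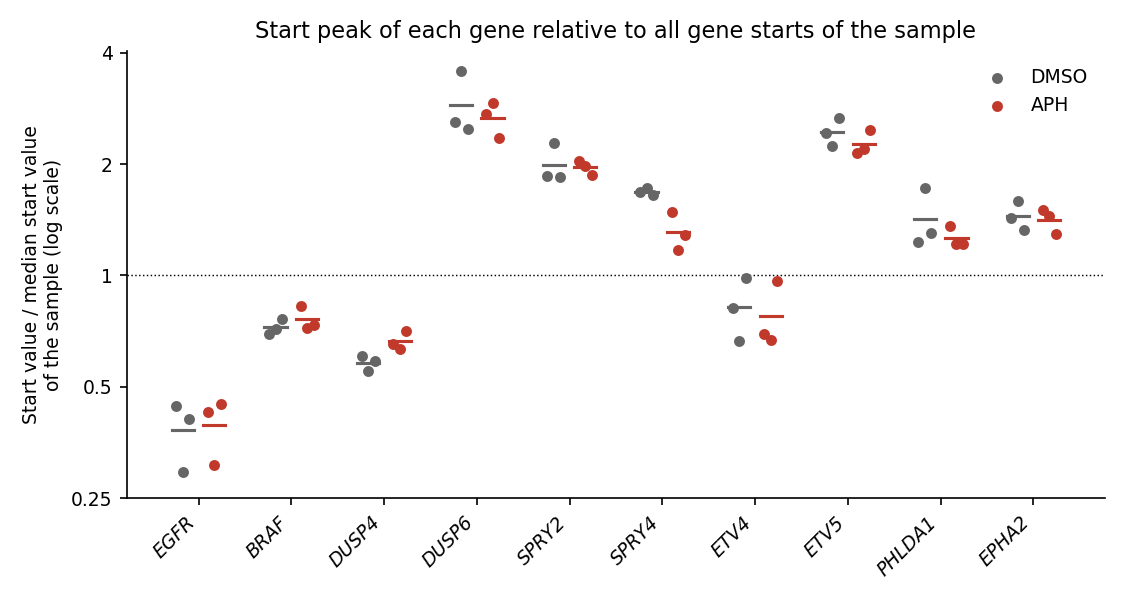
Start value of each gene divided by the median start value of all genes in the same sample (log axis, dotted line at 1), with 1 point per sample and a line at the mean of each group. SPRY4 lies at 1.65 to 1.72 in DMSO and 1.17 to 1.48 in APH, DUSP4 is higher in APH, and the groups overlap at the other genes.

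The regions of the 10 genes were then compared one by one, to see whether starts, bodies and flanks differed. Of the 63 regions, 37 had a peak in all 6 samples, 12 at starts, 14 in bodies and 11 in flanks. Of the start regions 12 of 12 were lower in mean in APH, with a median log2 change of −0.27, and this was so in 8 of 14 body regions (median −0.05) and 10 of 11 flank regions (median −0.17). Of all 50150 shared regions 59.3% were lower in APH, and of all gene starts tested 88.4%. The median over the 37 regions was −0.20, against −0.06 over all 50150 shared regions, but the 37 were stronger than most (median percentile 83.7 by level) and 12 of them were starts, so these medians do not compare like with like. Under quantile normalization the start regions of BRAF (0.01) and DUSP4 (0.02) turned higher and those of SPRY2 and EPHA2 were at −0.04 and −0.06. With limma, 0 of the 37 regions and 0 of all regions passed in either direction (percent called 0), and an unadjusted p under 0.05 was given by 7 regions lower and 1 higher, against 10.1% and 2.46% of all regions. The groups did not overlap in 8 of the 37 regions lower in APH and in 4 higher in APH, against 14.4% and 4.21% of all regions. Of those 4 regions, 3 lay in bodies and 1 in a flank, and they belonged to EGFR and SPRY4.

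**Figure D3:**
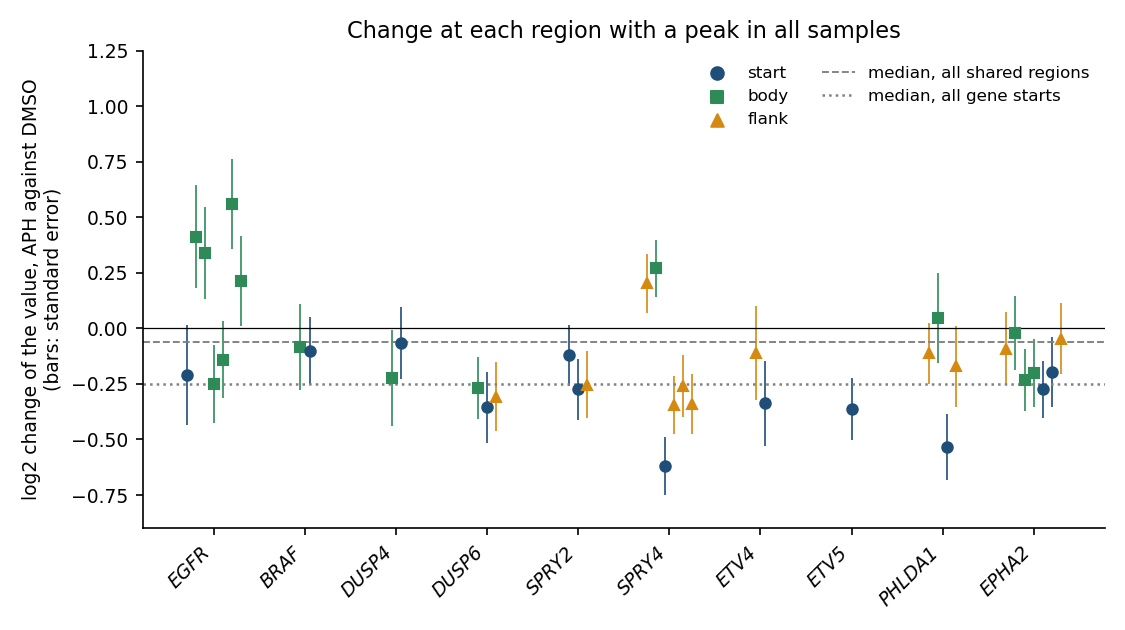
Log2 change of the value (APH against DMSO, bars are standard errors from limma) for the 37 shared regions, by gene and class. The dashed line is the median of all shared regions (−0.06) and the dotted line that of all gene starts (−0.25). Start regions lie below 0, and regions of EGFR and SPRY4 lie on both sides.

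In SPRY4 the shared regions near the start and those near the 3′ end of the gene differed in opposite directions. The start region, chr5:142324827-142325409, overlaps SPRY4-AS1, as do the SPRY4 regions upstream of it. The upstream region 0.746 kb from the 5′ end had values of 181, 195 and 217 in DMSO and 155, 153 and 157 in APH, without overlap (log2 change −0.35 ± 0.13, limma adjusted p = 0.311). The one at 3.52 kb had 157, 177 and 169 in DMSO and 141, 133 and 123 in APH, also without overlap (log2 change −0.34 ± 0.13). Between them, the strongest flank region, at 2.61 kb, had 233, 267 and 233 in DMSO and 202, 235 and 178 in APH, where APH 2 reached the range of DMSO. All 3 upstream regions were thus lower in mean in APH, like the start. The log2 change of the strongest flank region was −0.26 ± 0.14, or −0.045 under quantile normalization.

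The strongest body region of SPRY4, chr5:142310722-142311214, lay 14.1 kb into the gene and had values of 222, 245 and 244 in DMSO and 269, 313 and 276 in APH. All APH samples lay above all DMSO samples (log2 change 0.27 ± 0.13, limma adjusted p = 0.402). Under quantile normalization the log2 change was 0.50 (limma adjusted p = 0.168). The neighbouring region just past the 3′ end had 158, 179 and 178 in DMSO and 179, 209 and 206 in APH (log2 change 0.20 ± 0.13), where APH 1 lay just above the highest DMSO sample. A body region 10.2 kb into the gene had no peak in DMSO 2, with 155 and 170 in the other DMSO samples and 196, 229 and 203 in APH. The mean of the 2 regions at the 3′ end divided by the mean of the 4 at and above the start was 0.928, 0.930 and 0.958 in DMSO and 1.32, 1.55 and 1.53 in APH. This ratio, which does not depend on the scaling of a sample, was 0.939 ± 0.0165 against 1.47 ± 0.129 (SD, n = 3 each). It was chosen after the values were seen, with regions higher in APH over regions lower in APH. Its separation follows from that choice, so no p is given.

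**Figure D4:**
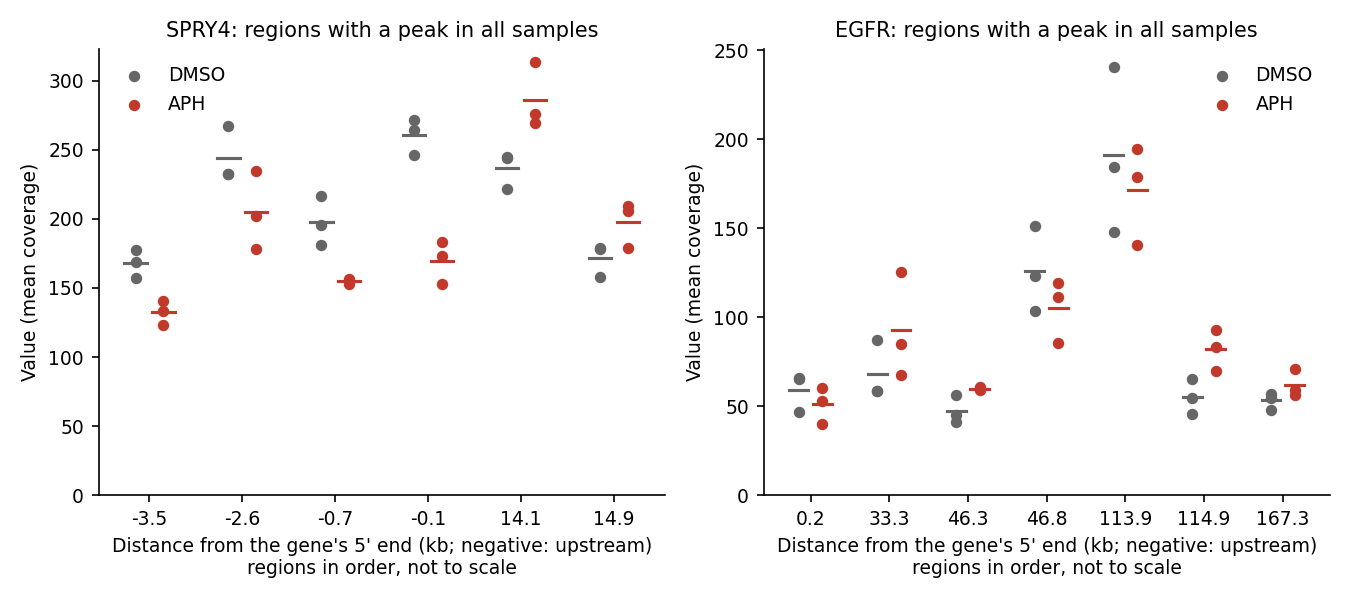
Values (mean coverage) of the shared regions of SPRY4 and EGFR, ordered by distance from the 5′ end in kb (not to scale), with 1 point per sample and a line at the mean of each group. In SPRY4 the start and upstream regions are lower in mean in APH and the regions at 14.1 and 14.9 kb higher, and in EGFR the region at 114.9 kb is higher in all APH samples while its stronger neighbour at 113.9 kb overlaps between groups.

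EGFR carried its strongest accessibility far inside the gene rather than at the start. The strongest body region, chr7:55132598-55133310, lay 113.9 kb from the 5′ end and had values of 184, 241 and 148 in DMSO and 179, 195 and 141 in APH, with overlap (log2 change −0.14 ± 0.17, or 0.04 without DMSO 2). The next region, chr7:55133781-55134131, began 470 bp further and had values of 54.9, 65.4 and 45.9 in DMSO and 83.2, 93.1 and 69.5 in APH. It was higher in all APH samples, with the largest change of the 37 regions in that direction (log2 change 0.56 ± 0.20, limma unadjusted p = 0.0137, adjusted p = 0.301). The value of this region divided by that of its neighbour was 0.298, 0.272 and 0.310 in DMSO and 0.465, 0.478 and 0.495 in APH. The ratio of 0.293 ± 0.0194 against 0.479 ± 0.0149 (SD, n = 3 each) was chosen after the values were seen, so no p is given. In both groups sample 2 was highest and sample 3 lowest in both regions, and in the ratio the samples of a group lay close together.

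A weaker EGFR region at 46.3 kb, chr7:55065114-55065472, had 45.1, 56.3 and 41.2 in DMSO and 61.1, 58.9 and 59.7 in APH, without overlap (log2 change 0.34 ± 0.21, limma adjusted p = 0.522). Its stronger neighbour at 46.8 kb had 123, 151 and 103 in DMSO and 119, 111 and 85.7 in APH, with overlap (log2 change −0.25 ± 0.18). The regions at 33.3 kb (log2 change 0.41 ± 0.23) and 167.3 kb (0.21 ± 0.20) were higher in mean in APH with overlap, and the latter lies in EGFR-AS1. Of the 6 body regions of EGFR, 4 were thus higher in mean in APH and 2 lower, and the 2 lower ones were the strongest. Of these, the one at 113.9 kb turned higher under quantile normalization (0.06).

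The remaining genes had no shared region that was higher in all APH samples. The PHLDA1 start region, chr12:76031304-76032985, had length-weighted values of 181, 192 and 209 in DMSO and 123, 118 and 163 in APH, without overlap (log2 change −0.53 ± 0.15, limma adjusted p = 0.290), and PHLDA1-AS1 and PHLDA1-DT overlap it. The region merged several peaks in some samples, so its values can lie below that of the highest start peak. Its strongest body region had 134, 208 and 116 in DMSO and 153, 191 and 121 in APH, and its strongest flank region 154, 168 and 157 in DMSO and 146, 163 and 135 in APH, and both overlapped. Only the start region of PHLDA1 was without overlap among its 4 shared regions.

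At DUSP6 the strongest body region had values of 163, 202 and 203 in DMSO and 149, 169 and 152 in APH, and the strongest flank region, 1.47 kb upstream, 177, 164 and 204 in DMSO and 121, 151 and 171 in APH. Both were lower in mean in APH with overlap (log2 change −0.27 ± 0.14 and −0.31 ± 0.15, the latter −0.17 without APH 1), as was the start. Under quantile normalization the changes were −0.07 and −0.12. The readthrough gene POC1B-DUSP6 covers these regions. At DUSP4 the only shared body region had 84.5, 123 and 75.9 in DMSO and 87.4, 95.2 and 59.2 in APH, with wide overlap.

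At SPRY2 a region at a downstream listed start had values of 151, 176 and 190 in DMSO and 160, 150 and 163 in APH, and the strongest flank region had 131, 117 and 132 in DMSO and 95.5, 104 and 120 in APH. The groups overlapped in both. At EPHA2 the strongest flank region, 8.38 kb upstream, had 197, 293 and 208 in DMSO and 208, 257 and 204 in APH, and the strongest body region had 184, 194 and 156 in DMSO and 146, 164 and 144 in APH, again with overlap. A further EPHA2 body region 1.01 kb from the 5′ end was lower without overlap, with 124, 108.5 and 113 in DMSO and 104, 108.2 and 88.8 in APH, where DMSO 2 and APH 2 were nearly equal.

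At BRAF the only shared body region, 113.6 kb into the gene, had 89.0, 133 and 91.5 in DMSO and 93.7, 121 and 80.1 in APH. At ETV4 the strongest flank region, which lies in DHX8, had 66.2, 115 and 83.8 in DMSO and 78.6, 95.6 and 67.5 in APH. In both, the groups overlapped and sample 2 was the highest of each. At ETV5 the start region was the only one of 6 with a peak in all samples.

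The 10 genes held 49, 51 and 47 peaks in DMSO and 56, 60 and 52 in APH. All APH samples held more peaks than any DMSO sample, but the share of all peaks of the sample was 0.0744%, 0.0661% and 0.0729% in DMSO and 0.0702%, 0.0710% and 0.0742% in APH, with overlap. Body peaks numbered 22, 20 and 17 in DMSO and 24, 27 and 23 in APH, start peaks 13, 16 and 14 against 16, 15 and 14, and flank peaks 14, 15 and 16 against 16, 18 and 15. The numbers of body peaks did not overlap, but relative to the full peak list of each sample they made up 0.0334%, 0.0259% and 0.0264% in DMSO and 0.0301%, 0.0319% and 0.0328% in APH, with DMSO 1 the highest, so the groups overlapped in this class too. In mean value, body peaks stood at 112 ± 10.3 for DMSO against 108 ± 8.51 for APH (SD, n = 3 each), flank peaks at 139 ± 9.65 against 114 ± 1.73, and start peaks at 195 ± 6.92 against 155 ± 3.61. Of the 63 regions, 10 had peaks in APH samples only (15.9%) and 2 in DMSO samples only (3.17%), against 18.5% and 7.03% of all regions. The 26 regions that were not shared had a median value of 53.6, against 154 for the 37 shared ones, and 8 of them were found in 1 sample, which was APH 2 for 5 of the 8.

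**Figure D5:**
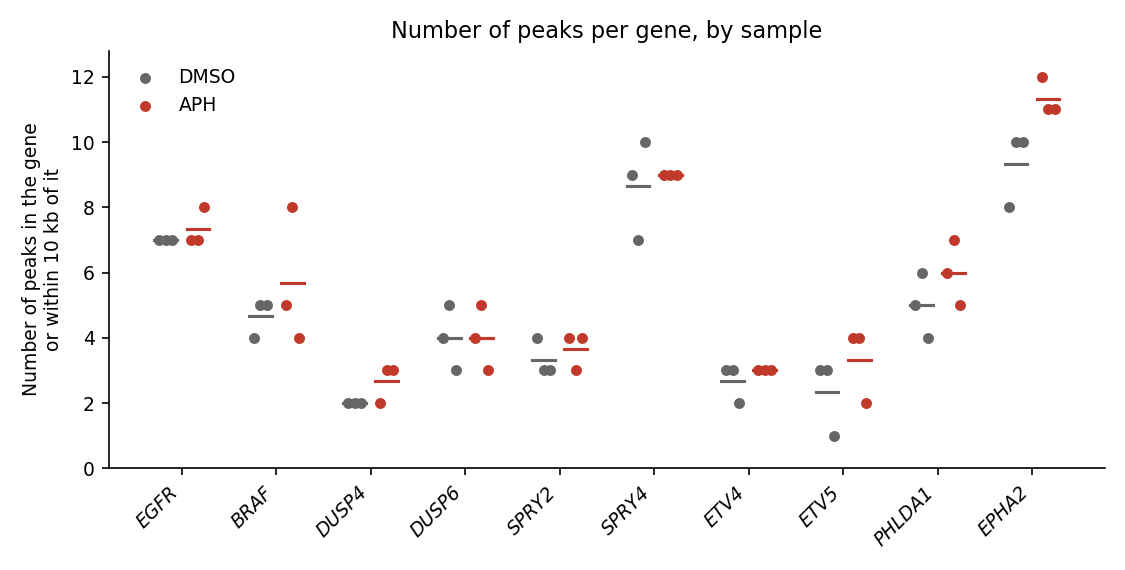
Number of peaks in each gene or within 10 kb of it, with 1 point per sample, DMSO in gray and APH in red, and a line at the mean of each group. EPHA2 has 8 to 10 peaks in DMSO and 11 to 12 in APH, and the groups overlap at the other 9 genes.

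EPHA2 had 8, 10 and 10 peaks in DMSO and 12, 11 and 11 in APH, and was the only one of the 10 genes whose numbers did not overlap. The log2 change of the number was 0.26 ± 0.098 (limma adjusted p = 0.561, exact permutation p = 0.1). It was 0.16 without DMSO 1, 0.13 with a flank of 50 kb, and 0.10 when numbers were scaled by the total of the sample, which shifted the median of all genes by −0.15. BRAF had 4, 5 and 5 peaks in DMSO and 5, 8 and 4 in APH, with the most in APH 2. SPRY4 had 9, 7 and 10 against 9 in each APH sample. Of the 10 genes, 7 had enough peaks to be tested and 0 passed, against 0.772% of 14372 genes called higher in APH and 0.125% called lower. The groups did not overlap in 1 of these 7, higher in APH, against 4.01% of all genes in that direction and 0.445% in the other. This was EPHA2, which alone gave an unadjusted p under 0.05, against 5.55% of all genes higher.

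Averaged over its peaks, the value of a gene was lower in APH for 9 of the 10 genes, with EGFR as the exception (log2 change 0.03), although SPRY4 turned higher with samples centred on their median and SPRY4, PHLDA1 and EPHA2 under quantile normalization. The median log2 change was −0.23, against −0.14 over 34274 genes, of which 74.1% were lower in APH. With limma 0 of the 10 genes and 0 of all genes passed (percent called 0), and an unadjusted p under 0.05 was given by 0 of the 10, against 15.6% of all genes lower and 1.46% higher. The groups did not overlap for DUSP4 and PHLDA1, both lower in APH, against 22.9% of all genes lower and 2.3% higher. The DUSP4 means were 86.6, 105 and 85.2 in DMSO and 84.1, 66.2 and 68.9 in APH. Those of APH 2 and APH 3 each included a weaker peak found in that sample alone (20.8 and 52.4). The shared regions of DUSP4 overlapped between the groups. ETV5 had the largest difference, with mean values of 155, 168 and 428 in DMSO and 106, 115 and 177 in APH (log2 change −0.79 ± 0.36, limma adjusted p = 0.303). The value of 428 in DMSO 3 was that of its single peak, at the start. Without DMSO 3 the log2 change was −0.32.

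The other genes of the pathway were taken from a list of 65, from ligands to target genes. A start peak was present in all 6 samples at 58 of them and in none at EREG, ERBB4 and DUSP9. Of the 58, 53 were lower in mean in APH. The groups did not overlap in 24 of the 58 (41.4%), all lower in APH, which is near the 37.2% of all genes tested, and in 0 of the 58 were all APH values higher, against 1.06%. The median log2 change of their starts was −0.26, close to the −0.25 of all genes, and 0 passed with limma. The largest differences were at NRAS, a RAS gene, with 115, 106 and 124 in DMSO and 53.2, 71.8 and 87.8 in APH (log2 change −0.71 ± 0.18, limma adjusted p = 0.0692), and at PTPN11, which encodes the phosphatase SHP2, with 137, 157 and 121 in DMSO and 85.5, 73.5 and 100 in APH (log2 change −0.68 ± 0.16, limma adjusted p = 0.0692). In the other direction the largest were the ephrin receptor gene EPHA4 (0.15 ± 0.20) and AREG, which encodes a ligand of EGFR (0.06 ± 0.17), and neither passed. The number of peaks was tested in 54 of the 65 genes, of which 1, the immediate early gene IER2, passed, with 6 peaks in each DMSO sample and 8 in each APH sample (log2 change 0.36 ± 0.013, limma adjusted p = 0.000601). This was 1.85% of the 54 genes, beside the 0.772% of all genes called higher. ELK1, the other gene of the list without overlap, had 4, 5 and 4 peaks in DMSO and 2, 3 and 3 in APH (log2 change −0.55 ± 0.15, limma adjusted p = 0.521), and was named after its values were seen. The small standard error of IER2 rests on equal numbers within each group, and the call was lost when the number was scaled by the total of the sample (0.21 ± 0.13, adjusted p = 0.713) and with a flank of 50 kb (adjusted p = 0.359) in limma.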

How the data were processed

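ATAC-seq peak lists of 6 RKO samples, 3 treated with DMSO and 3 with APH, were used. The authors aligned the reads with BWA (mem, version 0.7.12), removed duplicates, extended alignments to 200 bp, counted them in 32-nt bins, called peaks in each sample separately with MACS2 2.1.0 and removed blacklisted peaks. A shift to the Tn5 cutting site is not mentioned. The authors deposited for each peak its position and 1 value, the mean coverage signal across it. The submitters' processing notes name hg38. The values of peaks below 1000 in value and at most 1000 bp wide were multiplied by the number of bins. They were whole numbers to within 0.02 for at least 99.995% of these peaks in each sample, so the values were read as unscaled. Higher or wider peaks were not checked. Whether reads had been subsampled to a common depth is not known. The lowest value was 15.1 to 15.5 in all samples. Reads per library are not known, so no counting interval is given.

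Overlapping peaks (at least 1 bp) formed merged regions, with the value per sample a mean weighted by length. Genes came from RefSeq GRCh38.p14. A RefSeq promoter gave the start for 27303 of the 47520 genes with a start, and the 5′ end of the gene, with the strand from GENCODE, served for the others, DUSP4, ETV4 and ETV5 among them. Whether a region lies in an exon, intron or UTR was not determined. Region values, the highest start peak, the mean peak value per gene and the number of peaks per gene (genes with a mean of at least 3) were compared with limma with an intensity trend on log2(value + 1), with Benjamini-Hochberg adjustment over all features and a threshold of 0.05, so changes of low values are understated. For single values an exact permutation test, two-sided, was used. limma was also tested on simulated data. Software was R 4.3.3, limma 3.58.1 and Python 3.11.15 (numpy 2.4.6, pandas 2.3.3, matplotlib 3.10.9).

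The 10 genes, the pathway list and the markers were chosen with earlier results of these data known. Named were all 10 genes and, of their regions, the start, the strongest body and the strongest flank region by mean value, and the 3 shared regions with the largest change in each direction among those without overlap. Of the list of 65 genes, those past the threshold and the 2 largest start changes in each direction were named. The other regions of SPRY4, EGFR and EPHA2, the genes named as examples of absent peaks and the 2 ratios within a gene were chosen after their values were seen. The labels do not say that the replicate numbers mark a shared day, so p-values measure the spread between these samples. Alternatives covered scaling, pseudocounts, filters, windows, peak numbers, a replicate block and each sample left out.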

Additional observations from a re-analysis of the deposited data

How the results depend on the processing

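Most results kept their direction and their side of the threshold. The starts of SPRY4, DUSP6, ETV4, ETV5, PHLDA1 and EPHA2 were lower in APH in every alternative that gave a value, and none of the 10 genes passed without the replicate block except the SPRY4 start region with the value multiplied by the covered length (log2 change −0.73, limma adjusted p = 0.0418), an alternative chosen after seeing the data. A start window of 500 bp left SPRY4 without a value. The unknown depth limits all comparisons of level between the groups. The causes of the changes below were not tested.

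With each sample centred on its median, 1 region was called lower and 1 start higher among all features, and the log2 change was 0.0709 at the BRAF start, 0.0475 at the EGFR start, 0.191 at the DUSP4 start and 0.0742 for the mean value of SPRY4. With quantile normalization 1 start was called higher, and the log2 change was 0.0546 (BRAF), 0.159 (DUSP4) and 0.00435 (SPRY2) at starts, 0.0136 in the BRAF start region, 0.0271 in the strongest BRAF body region, 0.0617 in that of EGFR, 0.0183 in the DUSP4 start region, 0.0670 in the PHLDA1 flank region, 0.175 in the EPHA2 flank region, and 0.172 (SPRY4), 0.000636 (PHLDA1) and 0.0324 (EPHA2) for mean values. With peak numbers equalised between samples 81 genes were called higher and 35 lower in number, the change in number was −0.0877 for BRAF, and the flank peaks of the 10 genes differed by 0 in number and by −17.4 in mean value (−24.9 with all peaks).

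With the gene body alone 4 genes were called lower in mean value, the change was 0.181 for SPRY4 and 0.0778 for PHLDA1, and 18 genes were called higher and 4 lower in number. A flank of 50 kb gave 7 and 0 in number, and a mean of at least 1 peak 299 and 57. Numbers scaled by the total of the sample gave 1 and 0, and −0.0971 for EGFR, −0.0282 for SPRY2 and −0.0981 for SPRY4. At least 3 peaks in every sample gave 92 genes lower in mean value, the mean of the start peaks 23 starts lower, and the value multiplied by covered length 27 regions higher and 541 lower, with 0.0413 for the strongest EPHA2 body region.

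Leaving out 1 sample at a time gave 187 to 361 genes higher and 60 to 77 lower in number, 0 to 1 starts higher and 0 to 2 lower, and 0 to 3 regions lower. Log2 changes then ranged from −0.0808 to 0.162 for the mean value of EGFR, from −0.0438 to 0.380 for the number of BRAF and from −0.0688 to 0.161 for that of SPRY4. In strongest body regions they ranged from −0.242 to 0.0993 (BRAF), from −0.31 to 0.0397 (EGFR) and from −0.13 to 0.29 (PHLDA1), and in strongest flank regions from −0.15 to 0.13 (EPHA2) and from −0.30 to 0.10 (ETV4). The difference in mean value of the body peaks of the 10 genes, APH minus DMSO, ranged from −7.80 to 2.20.

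Deviations from the group means over shared regions correlated between samples of the same number with r of −0.00665, 0.477 and 0.515, and DMSO 1 and APH 1 did not correlate best with each other, so the numbers were not taken as pairs. With the replicate number as a block, 1019 of the 50150 shared regions were called higher and 5579 lower. Of the 15281 starts 118 were called higher and 6613 lower, and of the 14372 genes 70 were called higher and 8 lower in number. Beside these calls over all features, 12 of the 37 shared regions of the 10 genes were then called, 9 lower and 3 higher. The starts of DUSP6, SPRY2, SPRY4, ETV4, ETV5, PHLDA1 and EPHA2 were called lower. With the block and each sample centred, an alternative chosen after seeing the data, 32 starts were called higher and 1 lower, with 0.0709 for BRAF, 0.0475 for EGFR and 0.191 for DUSP4.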
